A study of Stropharia rugosoannulata with 3 samples.

Results

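Gene expression in mycelia of *S. rugosoannulata* was searched for genes that were low in a single library. A gene model was taken when its mean count over the 3 libraries was at least 100 and its FPKM in library 2 was more than 3-fold lower than in library 1 and more than 3-fold lower than in library 3. Of the 11750 gene models, 9184 reached the count minimum after the peroxidase genes drawn by the study were left out, and 48 of these met the rule, which is 0.523% of the models tested. None of the 60 drawn peroxidase genes would have met it. The genes were thus chosen by their counts and their FPKM in all 3 libraries, and their low level in library 2 is described here without a test. The mycelia were of the strain Heinong No.1 at the mycelium stage, grown on potato dextrose agar (PDA) plates at 25 °C, and the 3 libraries are replicates of this single condition. Sample titles name S68, a monokaryotic single-spore isolate of that cultivar, whereas the methods name the cultivar for the transcriptome. No treatment separates library 2 from libraries 1 and 3, and nothing in the labels says whether the libraries came from separate cultures, so the spread between them may be technical.

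A mycelium is a network of hyphae that extends at its edge while the older parts behind it thicken, recycle material or stop growing. Vegetative mycelia of basidiomycetes can therefore hold hyphae of different age and nutrition on a single plate, and PDA supplies glucose and starch. In fungal genomes, genes that act in the same pathway, for instance in secondary metabolism or in the use of a carbon source, are at times found side by side and expressed together. The place of the 48 genes on the contigs was examined for this reason. The tables pair each gene with a name and a place on a contig but with no product, so no function is given here for any of them. None of the 48 is among the genes that the text or the other figures of the study name. In RNA from a whole mycelium, fewer hyphae expressing a gene and less of its RNA per hypha cannot be told apart.

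The counts summed to 30516180 in library 2, against 31831513 in library 1 and 29678333 in library 3. FPKM, which divides the fragments of a gene by its length and by the depth of the library, is the level used throughout. Across all gene models, the Pearson correlation of log2(FPKM + 1) with library 2 was 0.969 for library 1 and 0.973 for library 3, against 0.985 for libraries 1 and 3 with each other. Over the 9184 models tested, the median log2 ratio of library 2 to library 1 was 0.15 in FPKM, and that of library 2 to library 3 was 0.03. With TMM normalization these medians were -0.005 and 0.003, so this scaling shifted the ratio to library 1 for genes at large. Relative to the median of the models tested, a measure that no scaling of whole libraries can alter, the median log2 ratio of the 48 genes was -2.41 against library 1 and -2.77 against library 3.

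The 48 genes were mostly abundant where they were not low. Their median level was 37.6 FPKM in library 2, against 191 in library 1 and 236 in library 3. All other models that reached the count minimum had medians of 37.0 FPKM in library 2, 32.3 in library 1 and 35.2 in library 3. The median of the 48 genes was thus ordinary in library 2 and high in the other libraries. Their levels in library 2 were more spread out than those of the other models. An FPKM of at least 10 was reached there by 33 of the 48 (68.8%), against 86.8% of the others. Larger shares of the 48 were, however, among the most abundant models of library 2, as given next. Among the 1000 highest models were 10 of the 48 genes in library 2 (20.8%), 28 in library 1 (58.3%) and 30 in library 3 (62.5%). Of the other models past the count minimum, 10.7%, 10.6% and 10.5% were so in libraries 2, 1 and 3. An FPKM of at least 100 was reached by 11 of the 48 in library 2 (22.9%), by 31 in library 1 (64.6%) and by 36 in library 3 (75%). The shares of the other models were 17.5%, 18.3% and 17.7%. Together the 48 genes took 0.412% of all counts in library 2 (95% Wilson interval 0.409% to 0.414%). Their share was 1.96% in library 1 (1.95% to 1.96%) and 2.91% in library 3 (2.90% to 2.91%). These intervals cover counting error only, and they are too narrow if a fragment adds 2 counts. The rule favours genes that are high in libraries 1 and 3, and so the levels there are not independent of it.

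**Figure D1:**
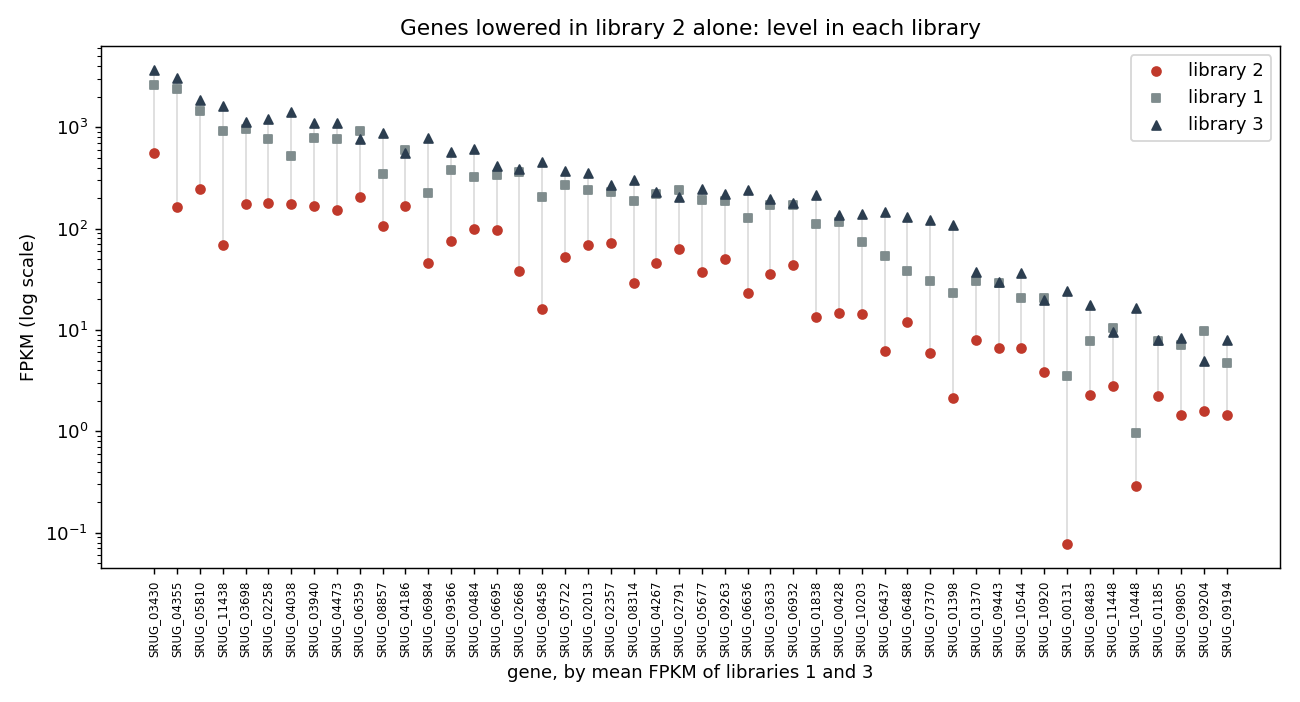
FPKM on a log axis of each of the 48 genes in library 2 (circles), library 1 (squares) and library 3 (triangles), ordered by the mean of libraries 1 and 3; grey lines join the lowest and the highest library. Library 2 is the lowest for every gene by the rule, and the triangle lies above the square in 42 of the 48.

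The highest of the 48 was SRUG_03430, model 778 of contig 3, with 560 FPKM in library 2, against 2607 in library 1 and 3695 in library 3 (mean 2288 ± 1592, SD, n = 3). It ranked 215 of all gene models in library 2, but 18 in library 1 and 14 in library 3. SRUG_04355, model 547 of contig 4, had 165 FPKM in library 2, against 2398 and 3028 in libraries 1 and 3, and it moved further along the ranking. It ranked 890 in library 2, 23 in library 1 and 18 in library 3, and its counts were 2314 in library 2 against 35275 and 41560 in libraries 1 and 3. SRUG_05810, model 65 of contig 6, had 248 FPKM in library 2, against 1443 and 1875 in libraries 1 and 3. SRUG_11438, model 125 of contig 17, had 68.8 FPKM in library 2, against 911 and 1631 in the same libraries, and ranked 2536 in library 2 against 106 and 48. These genes ranked no lower than 106 in libraries 1 and 3, and all but SRUG_11438 were still among the 1000 highest models of library 2.

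The other genes of the 12 with the highest levels in libraries 1 and 3 lay on contigs 2, 3, 4, 6 and 10. SRUG_03698, model 1048 of contig 3, had 176 FPKM in library 2, against 967 and 1136 in libraries 1 and 3, and SRUG_02258, model 954 of contig 2, had 178 FPKM, against 773 and 1210. SRUG_03940 had 166 FPKM in library 2, against 781 and 1100 in libraries 1 and 3, while SRUG_04473 had 151 FPKM, against 773 and 1094; both are on contig 4, as models 125 and 669. These 4 genes were at nearly the same level in library 2, between 151 and 178 FPKM. SRUG_06359, model 620 of contig 6, had 204 FPKM in library 2, against 914 and 761 in libraries 1 and 3. It was one of the few genes that were lower in library 3 than in library 1. SRUG_04186, model 374 of contig 4, was another, with 167 FPKM in library 2, against 597 and 559 in libraries 1 and 3. In SRUG_04038, model 226 of contig 4, and SRUG_08857, model 351 of contig 10, library 3 was 2.73 and 2.55 times library 1. SRUG_04038 had 174 FPKM in library 2, against 523 and 1427 in libraries 1 and 3. SRUG_08857 had 107 FPKM in library 2, against 344 and 876 in libraries 1 and 3.

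The gaps between library 2 and the other libraries covered a wide range. The lower of libraries 1 and 3 was at least 10-fold above library 2 in 5 of the 48 genes, between 5- and 10-fold in 15, between 4- and 5-fold in 8 and between 3- and 4-fold in 20. The median ratio of library 2 was 0.209 to library 1 (range 0.0217 to 0.333) and 0.149 to library 3 (range 0.00318 to 0.323). The count minimum applied to the mean over the 3 libraries, and so it set no floor in library 2 itself. In library 2, 24 of the 48 genes had at least 1000 counts. None had a count of 0 there, and 9 had fewer than 100.

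SRUG_00131, model 134 of contig 1, had the lowest ratio, with 2 counts in library 2 against 71 in library 1 and 451 in library 3. Its FPKM was 0.0769 in library 2, against 3.55 and 24.2, and its ratio to library 1 was 0.0217 with a 95% counting interval from 0.000541 to 0.131. The value in library 2 thus rested on a single fragment or so, since most low counts are even, as when a fragment adds 2 counts. The other genes of the 12 lowest ratios were counted more deeply. SRUG_04355 and SRUG_11438, described above, were 14.6- and 13.2-fold higher in library 1 than in library 2. SRUG_08458, model 545 of contig 9, had 16.0 FPKM in library 2, against 203 in library 1 and 449 in library 3, from 92 counts against 1216 and 2511. SRUG_01398, model 82 of contig 2, had 2.12 FPKM in library 2, against 23.4 and 109 in libraries 1 and 3, from 73 counts against 837 and 3649. Its level differed 51.7-fold between libraries 3 and 2.

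The remaining genes of the 12, SRUG_05810 among them, were between 5 and 10 times lower in library 2 than in the nearer of the other libraries. SRUG_02668, model 7 of contig 3, had 37.9 FPKM in library 2, against 366 and 384 in libraries 1 and 3. Here libraries 1 and 3 differed by a factor of only 1.05, and the gap to library 2 was 9.65-fold against library 1 and 10.1-fold against library 3. SRUG_06437, model 8 of contig 7, had 6.27 FPKM in library 2, against 53.9 and 146, and SRUG_01838, model 529 of contig 2, had 13.6 FPKM in library 2, against 111 and 214 in libraries 1 and 3. SRUG_00428, model 433 of contig 1, had 14.8 FPKM in library 2, against 115 and 136 in the same libraries. SRUG_08314, model 399 of contig 9, had 28.8 FPKM in library 2, against 186 and 304, and SRUG_06636, model 208 of contig 7, had 22.9 FPKM in library 2, against 127 and 241. Apart from SRUG_05810, these genes held ranks from 397 to 3087 in library 1, and none of them was among the 1000 highest models of library 2.

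Libraries 1 and 3, which the rule did not compare with each other, also stood in a common order in these genes. Library 3 was above library 1 in 42 of the 48 (87.5%), with a median ratio of library 3 to library 1 of 1.41. Among the other models past the count minimum, 63.7% were higher in library 3 and the median ratio was 1.10. Among models with at least 100 FPKM in library 1, library 3 was above library 1 in 28 of 31 of these genes (90.3%, median ratio 1.38) and in 36.5% of the others (median ratio 0.916). With 10 to 100 FPKM in library 1, library 3 was above library 1 in 8 of 10 genes and in 66.0% of the others. With less than 10 FPKM in library 1, it was so in 6 of 7 genes and in 82.6% of the others. Requiring library 2 to be low against both others ties the ratio to the level of each, and these shares are given as a description. They are in FPKM and are not given with TMM factors, which were 0.935 for library 1 and 1.03 for library 3. That scaling would in general lower the ratio of library 3 to library 1, so genes with ratios near 1 could change order.

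By the relation of libraries 1 and 3 in FPKM, the genes fell into 4 kinds, set after the values had been seen. In 21 of them libraries 1 and 3 were within 1.3 times of each other, with medians of 44.0 FPKM in library 2, against 193 in library 1 and 218 in library 3. In 15, library 3 was 1.3 to 2 times library 1, with medians of 68.8 FPKM in library 2, against 267 and 368 in libraries 1 and 3. In 11 genes library 3 was more than 2 times library 1, with medians of 6.27 FPKM in library 2, against 37.9 and 131. Only SRUG_09204 was lower in library 3 than in library 1 by more than 1.3 times, with 1.59 FPKM in library 2, against 9.74 in library 1 and 4.90 in library 3. The median ratio of library 2 to the nearer library was 0.228 in the first kind, 0.199 in the second and 0.203 in the third.

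Of the 11 genes, 6 were more than 3-fold higher in library 3 than in library 1 and so stood apart at each of the 3 levels. These 6 are 12.5% of the 48 and 23.1% of the 26 models that were raised more than 3-fold in library 3 alone, a set that makes up 0.283% of the models tested and shares its values with the rule. SRUG_00131 and SRUG_01398 have been described. SRUG_10448, model 205 of contig 13, showed the widest step from library 1 to library 3, with 0.287 FPKM in library 2, against 0.961 in library 1 and 16.4 in library 3. Its 7 and 25 counts in libraries 2 and 1 left the ratio between them, 0.299, with a counting interval from 0.0483 to 0.989. SRUG_07370, model 314 of contig 8, had 5.87 FPKM in library 2, against 30.2 and 122 in libraries 1 and 3. SRUG_06984, model 564 of contig 7, had 45.7 FPKM in library 2, against 225 and 774. SRUG_06488, model 59 of contig 7, had 12.1 FPKM in library 2, against 37.9 and 131. The last 3 had between 199 and 1525 counts in library 2, and their order of library 2, library 1 and library 3 was the same. These genes, apart from SRUG_00131 and SRUG_01398, were named after their values had been seen.

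The opposite case, with libraries 1 and 3 close together and library 2 alone apart, was found in well-counted and in faint genes. SRUG_04267, model 459 of contig 4, had 45.7 FPKM in library 2, against 222 and 232 in libraries 1 and 3, from 3104, 15789 and 15398 counts in libraries 2, 1 and 3. SRUG_06932, model 512 of contig 7, had 44.0 FPKM in library 2, against 169 and 181. SRUG_09443, model 184 of contig 11, was fainter, with 6.59 FPKM in library 2, against 28.9 and 29.6, and had 103 counts in library 2. In these genes the values of libraries 1 and 3 differed by less than 1.1 times, while library 2 was 3.85 to 4.86 times lower than library 1. They were picked after their values had been seen.

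The limit of the rule fell among genes that hardly differed. Just inside it were SRUG_04038, with a ratio to the nearer library of 0.333, SRUG_09204, model 703 of contig 10, with 0.323, and SRUG_10544, model 301 of contig 13, with 0.321. SRUG_10544 had 6.58 FPKM in library 2, against 20.5 and 36.7 in libraries 1 and 3. Just outside it were SRUG_10685 (84.8 FPKM in library 2, against 253 and 455), SRUG_00584 (15.0, against 46.3 and 44.7) and SRUG_05782 (0.683, against 3.74 and 2.03), with ratios of 0.335, 0.336 and 0.336. With TMM scaling all 3 of these met the rule, at ratios to the nearer library of 0.300, 0.330 and 0.332. With counts halved to fragments, the upper end of the 95% counting interval of the ratio to the nearer library was below the limit in 39 of the 48 genes. In the other 9, which include the 3 just inside, counting error alone could place the gene on either side.

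The same limits were applied to the other libraries and to the other direction. Against the 48 genes lowered in library 2 alone (0.523% of 9184), 21 models were lowered in library 1 alone (0.229%) and 7 in library 3 alone (0.0762%). In the raised direction there were 121 models for library 2 (1.32%), 13 for library 1 (0.142%) and 26 for library 3 (0.283%). In FPKM, library 2 thus had the most models apart from the other libraries in either direction, and more of them raised than lowered. The median log2 ratio of library 2 to library 1 was 0.15 in this unit for genes at large. With TMM scaling the models lowered in library 2 alone numbered 60, and the other counts are given in FPKM only. Since a single growth condition was sampled, these counts compare libraries.

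**Figure D2:**
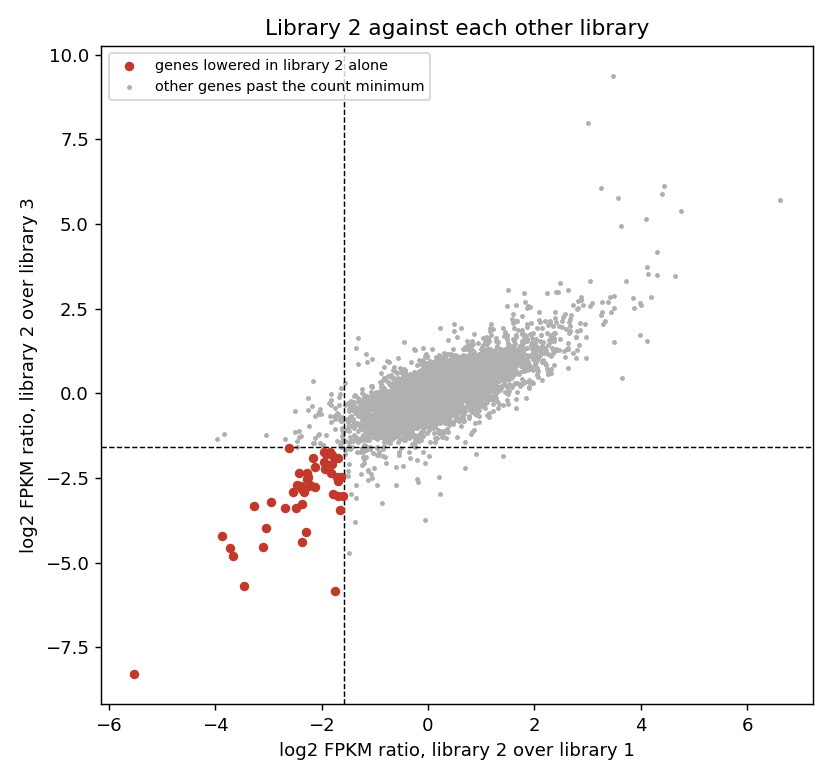
Log2 FPKM ratio of library 2 to library 1 (horizontal) and to library 3 (vertical) for the models past the count minimum, apart from 1 with no count in library 1; dashed lines mark the 3-fold limit. The 48 genes (red) lie below and left of both lines, and SRUG_00131 is the farthest from the rest.

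The 48 genes were spread over 15 of the 21 contigs. Contigs 2, 4 and 7 held 6 each, contig 3 held 5, and contigs 1 and 11 held 4 each. As a share of the models tested on a contig, the highest values were on contig 7, with 6 of 428 (1.40%), and contig 17, with 2 of 147 (1.36%), set against 0.523% overall. Contig 8 had 1 of 753 (0.133%) and contig 5 had 2 of 919 (0.218%). The 6 contigs without any were 14, 16, 18, 19, 20 and 21, on which between 1 and 211 models were tested. The share on contig 7 was the highest of 21 contigs, and its 95% Wilson interval ran from 0.644% to 3.02%. With TMM or DESeq2 scaling, contig 2 alone held the most genes, at 0.681% of its models tested. Within 20 models of a contig end lay SRUG_09263 (model 2 of contig 11), SRUG_02668 (model 7 of contig 3) and SRUG_06437 (model 8 of contig 7), which is 6.25% of the 48, against 3.90% of the other models past the count minimum.

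**Figure D3:**
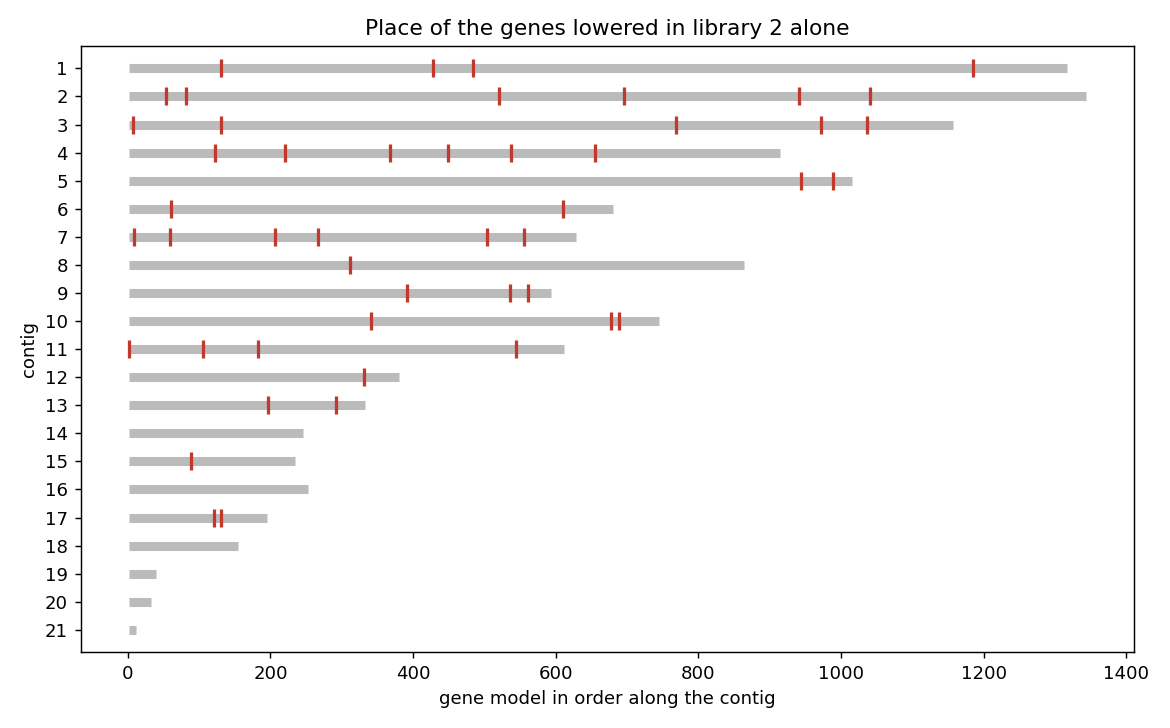
Position of the 48 genes (red marks) in the order of gene models along each of the 21 contigs (grey bars, whose length is the number of models). The marks are scattered, no mark has another as its neighbouring model, and contigs 14, 16 and 18 to 21 have none.

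No run of neighbouring members was found. None of the 48 genes, a set of 0.523% of the models tested, had another of them as the next model on either side, within 2 models or within 5 models, and 4 had another within 10. This depended on the scaling and the limit, since 2 members were adjacent with TMM or DESeq2 scaling, which gave 60 genes, and 14 were at a 2-fold limit, which gave 158. The closest pairs were SRUG_09194 and SRUG_09204 on contig 10 and SRUG_11438 and SRUG_11448 on contig 17, each 10 models apart. The levels within these pairs differed in kind. SRUG_11438 had 68.8 FPKM in library 2, against 911 and 1631 in libraries 1 and 3, whereas SRUG_11448 had 2.78 FPKM in library 2, against 10.5 and 9.66. SRUG_09194 had 1.45 FPKM in library 2, against 4.74 and 7.99, and was higher in library 3 than in library 1, while in SRUG_09204 library 1 was the higher. The next pairs were 25 models apart or more.

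The models beside the 48 genes behaved much as the rest of the genome. Of the 96 models next to one of them, 80 passed the count minimum, and the median ratio of library 2 was 1.07 to library 1 and 0.990 to library 3, against 1.12 and 1.02 over all other models tested. At distances from 2 to 10 models, the medians lay between 1.05 and 1.15 for library 1 and between 0.951 and 1.08 for library 3. Below 2-fold of both other libraries were 2 of the 80 next models (2.50%), against 1.20% of all others. These were SRUG_10543, beside SRUG_10544 on contig 13, and SRUG_04266, beside SRUG_04267 on contig 4. SRUG_10543 had 2.67 FPKM in library 2, against 7.85 and 8.48 in libraries 1 and 3, a ratio of 0.341 and 0.315, and so missed the limit by its ratio to library 1. SRUG_04266 had 7.41 FPKM in library 2, against 19.9 and 19.8, a ratio of 0.373 and 0.375, and like SRUG_04267 was level between libraries 1 and 3.

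Some neighbours went the opposite way. Among the 80 next models, 3 (3.75%) were raised more than 3-fold in library 2 alone, against 1.32% of the models tested. SRUG_06489, model 60 of contig 7, had 1768 FPKM in library 2, against 65.2 in library 1 and 42.2 in library 3, next to SRUG_06488 with 12.1 FPKM in library 2, against 37.9 and 131. SRUG_05809, model 64 of contig 6, had 150 FPKM in library 2, against 26.8 and 15.8, next to SRUG_05810 with 248 FPKM, against 1443 and 1875. SRUG_01371, model 55 of contig 2, had 27.8 FPKM in library 2, against 5.26 and 6.48, next to SRUG_01370 with 7.89 FPKM, against 30.3 and 37.5. In the first of these pairs library 2 was 27.1-fold above library 1 in SRUG_06489 and 3.13-fold below it in SRUG_06488. The neighbours and SRUG_01370 were named after their values had been seen. Whether reads of adjacent models could be assigned to the wrong one was not tested.

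**Figure D4:**
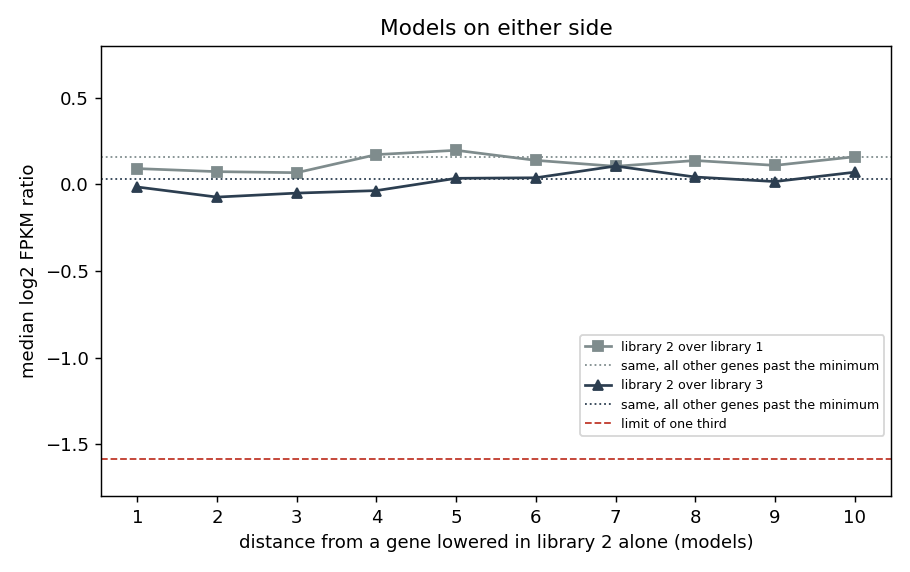
Median log2 FPKM ratio of library 2 to library 1 (squares) and to library 3 (triangles) over the models 1 to 10 places from a gene lowered in library 2 alone, those genes left out; dotted lines give the medians of all other models past the count minimum and the dashed line the 3-fold limit. The medians lie between -0.07 and 0.20 at every distance, near the dotted lines.

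Relative length was read from the counts per FPKM of a gene, which grow with the length used for the FPKM, set to 1 at the median model past the count minimum. The 48 genes had a median relative length of 0.745, with quartiles of 0.519 and 0.923, against 1.00, 0.647 and 1.43 for the other models. A relative length above 1 was found in 12 of the 48, against 50.2% of the others. This difference was not the same at every level. Among models with at least 100 FPKM in library 1, the 31 genes had a median relative length of 0.749 and the others 0.688. With 10 to 100 FPKM in library 1 the medians were 0.765 for 10 genes and 1.04 for the others, and below 10 FPKM they were 0.724 for 7 genes and 1.17 for the others. The median of the abundant genes was therefore not below that of other abundant genes, while the medians of the fainter ones were below those of other faint genes. Counts grow with length, so the count minimum itself favours longer models below 10 FPKM. That minimum used all libraries and the bands used library 1 only. The gap in length below 10 FPKM is thus not independent of the selection, and no conclusion is drawn from it.

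The longest were SRUG_09263, SRUG_00484 (model 489 of contig 1) and SRUG_03633 (model 981 of contig 3), with relative lengths of 3.53, 2.57 and 2.36. SRUG_09263 had 49.8 FPKM in library 2, against 188 and 218 in libraries 1 and 3, and SRUG_00484 had 99.9 FPKM, against 322 and 606. SRUG_03633 had 35.8 FPKM in library 2, against 170 and 197. The shortest were SRUG_08458, SRUG_04186 and SRUG_03698, with relative lengths of 0.133, 0.165 and 0.255, all described above. Across the 48 genes, Spearman's rho between relative length and the ratio of library 2 to the nearer library was 0.31, and between the mean level of libraries 1 and 3 and that ratio it was -0.19. These are descriptions across genes that share the same 3 libraries. The levels of libraries 1 and 3 also enter the ratio, which the rule caps, so the second value is not independent of the selection.

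**Figure D5:**
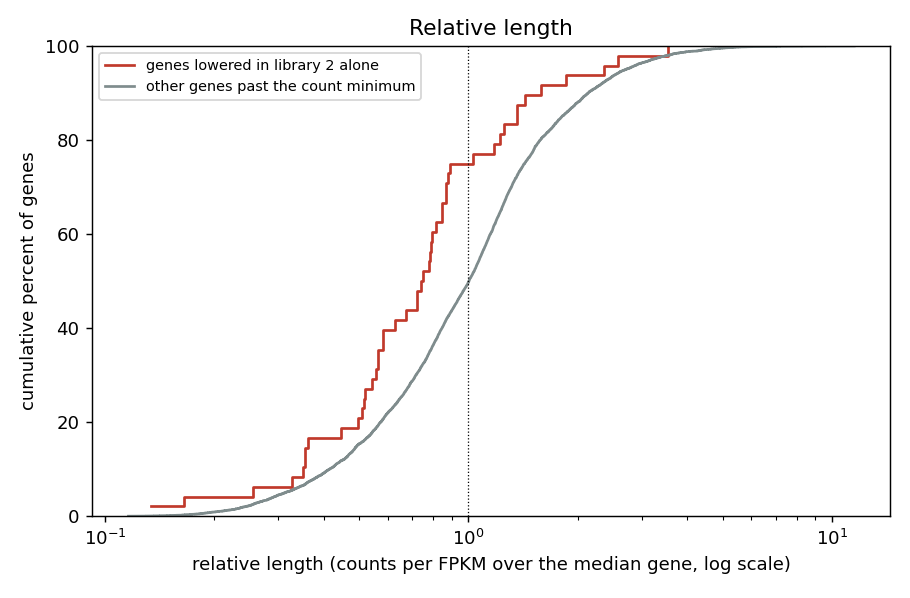
Cumulative percent of the 48 genes (red) and of the other models past the count minimum (grey) by relative length on a log axis; the dotted line marks the median model. The red curve lies left of the grey one over most of its course, and 12 of the 48 genes are right of the dotted line.

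Of the 48 genes, 26 were named by the rules on level, ratio, limit and length, and the other 22 were not. The ratios of these 22 to the nearer library ranged from 0.192 to 0.320, and their FPKM in library 2 from 0.287 (SRUG_10448) to 96.9 (SRUG_06695). SRUG_06695, model 267 of contig 7, had 337 and 414 FPKM in libraries 1 and 3. The mean of libraries 1 and 3 over the 22 ranged from 6.37 FPKM (SRUG_09194) to 500 (SRUG_06984). Among the fainter of them, SRUG_01185 had 49, 177 and 168 counts in libraries 2, 1 and 3, and SRUG_10920 had 87, 481 and 427. With SRUG_09194 and SRUG_09204, SRUG_01185 belonged to the genes whose counting interval reached above the limit.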

How the data were processed

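RNA-seq of 3 libraries of mycelia was analysed. The authors deposited whole-number counts per gene model, without normalization, in 2 tables that differed in 0 cells, and FPKM values in 2 more tables that also differed in 0 cells. The submitters' processing notes name fastp, HISAT2 and StringTie. Strand use, the handling of reads with several matches and the FPKM denominator are not given in the sources consulted. Columns were matched to libraries by the bracketed label that ends each sample title. Contig and model number were taken from the model names, and distances count models in that order. Coordinates, sequences and annotation were not used here.

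The totals were 29678333 to 31831513 counts per library, and 67.7% of the counts from 1 to 10 were even. Counting intervals of the ratios are exact (95%), from counts halved to fragments. Wilson intervals of the shares of counts used counts that were not halved. TMM factors (edgeR 4.0.16) and DESeq2 1.42.0 size factors (R 4.3.3) gave the alternative units. With 1 condition and genes chosen by these values, no differential test was made. The rule was run on simulated counts with genes lowered 10-fold in library 2, a gap that 5 of the 48 genes reached. The spread between libraries in that run was assumed, not taken from these data. The run does not bear on the smaller gaps or on how many models meet the rule through spread alone. The genes named are the 12 highest by mean FPKM of libraries 1 and 3, the 12 lowest ratios, the 3 on each side of the limit and the 3 longest and 3 shortest. Members and lists were chosen with earlier results of these data known. Python 3.11.15, pandas 2.3.3, NumPy 2.4.6, SciPy 1.17.1 and matplotlib 3.10.9 were used.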

Additional observations from a re-analysis of the deposited data

How the results depend on the processing

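The number of genes lowered in library 2 alone, 48, was 53, 44 and 38 at a mean count of at least 50, 200 and 500, and 112 without a count minimum. It was 60 with TMM-normalized CPM or DESeq2 size factors, 39 with FPKM + 1, 48 with plain CPM, with the second FPKM table or with the drawn peroxidase genes kept, 158 at a 2-fold limit and 28 at a 4-fold limit. All 48 were among the 60, the 112 and the 158. With library 1 or library 3 left out, the rule asks for less, and the number was 114 and 110; without library 2 the rule could not be applied. The median ratio to the nearer library, 0.212, stayed between 0.185 and 0.245 except at the 2-fold limit (0.392). Members with a member as the next model numbered 0 in the report, 2 without a count minimum, with TMM or with DESeq2 size factors, 14 at the 2-fold limit, and between 2 and 11 with a library left out. The median relative length, 0.745, was 0.740, 0.780 and 0.764 at mean counts of 50, 200 and 500, 0.680 without a minimum, 0.780 with TMM or DESeq2 size factors, 0.749 with FPKM + 1, 0.794 and 0.725 at the 2-fold and 4-fold limits, 0.746 from library 2 alone and 0.744 to 0.747 with a library left out. On the contig with most of the genes (contig 7, which tied with contigs 2 and 4 in number), they were 1.40% of the models tested. This was 0.579% (contig 2) at a mean count of 50, 2.33% (contig 11) without a minimum, 0.681% (contig 2) with TMM or DESeq2 size factors, 0.511% (contig 2) with FPKM + 1, 1.70% (contig 2) at the 2-fold limit and 0.562% (contig 4) at the 4-fold limit. The genes took 0.412% of the counts in library 2, 0.933% at the 2-fold limit, 0.254% at the 4-fold limit, 0.601% without library 1 and 0.729% without library 3, and between 0.395% and 0.447% at the other settings. No paired analysis was possible because the libraries form a single group. Depth limits the 9 genes with under 100 counts in library 2 most.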
